A study of Mus musculus with 9 samples.

Results

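The baseline transcriptome of HL-1 cells is described here from the 3 vehicle-treated libraries of the 9 libraries in the study. These 3 were taken by their label alone, as cells given 0.1% DMSO for 24 h, and no library from drug-treated cells was used. HL-1 is a continuously dividing cell line of mouse atrial origin, started from an atrial tumour of a transgenic mouse in which the promoter of the atrial natriuretic peptide gene drove a viral T antigen. It is a single line, and no heart tissue was compared with it here. The cells were kept in Claycomb medium, which was devised for this line. Total RNA was extracted, polyadenylated RNA was captured on magnetic beads, and libraries of barcoded fragments were sequenced on the Ion Proton system. Other cultures in the study received ivermectin or importazole, which are not analysed here. Whether the 3 libraries stem from separate cultures is not stated in the labels, so the spread between them may be technical.

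Heart muscle of the atria and of the ventricles is built from the same kinds of proteins but partly from different genes. Atrial muscle uses the light chains Myl7 and Myl4 and the hormone Nppa, ventricular muscle uses Myl2 and Myl3, and the pumping and relaxation of both rest on calcium released from and taken back into the sarcoplasmic reticulum. Adult heart muscle burns mainly fatty acids and its cells have largely left the cell cycle, whereas dividing cells in culture rely more on glycolysis. The levels of the genes behind each of these traits are given below, followed by the genes of other cell types.

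Levels are FPKM, fragments scaled to transcript length and to the mapped fragments of the library, as deposited by the authors, so genes are compared per length. The 3 values of a gene are always in the order vehicle 1, vehicle 2, vehicle 3. Depth is unknown, as the files give no read numbers. Each library listed 25175 symbols, and between 11055 and 11173 of them reached 1 FPKM. By the mean of the 3 libraries, 11148 symbols did so, 44.3% of all symbols and 52.3% of the symbols that match a protein-coding gene. A further 3775 symbols were at 0 in all 3 libraries, and 34 reached 1000 FPKM. As a reference for genes with no known use in heart muscle, 1787 olfactory and vomeronasal receptor genes, which serve sensory neurons of the nose, had a median of 0, and 99% of them lay at or under 0.0702 FPKM. Only Vmn2r38 among them reached 1 FPKM (0.056%), and it was chosen for mention after its value was seen. Over the 11148 genes, Pearson correlations of log2(FPKM + 1) between libraries were 0.983 to 0.986, a description across genes, which are not independent replicates. Values of vehicle 1 were in general slightly higher, with median-of-ratios factors of 1.04, 0.978 and 0.981 for vehicle 1, 2 and 3, and no such scaling was applied to the values printed. The transcript Yam1, the highest by mean, was listed at 30133.8, 0 and 38495.1 FPKM. Yam1 thus held 7.23% of summed FPKM in vehicle 1 and 9.64% in vehicle 3, and shares of the sum are given with and without it.

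All 5 marker genes chosen for the line were abundant in every library. The heavy chain of the heart myosin motor, Myh6 (GRCm38 chromosome 14, 54941921 to 54966927, minus strand), stood at 677, 699 and 620.1 FPKM. Cardiac actin Actc1 (GRCm38 chromosome 2, 114047282 to 114053548, minus strand) was at 691, 695 and 667 FPKM, and Atp2a2 (GRCm38 chromosome 5, 122453513 to 122502225, minus strand), the pump that returns calcium to the sarcoplasmic reticulum, at 740.0, 813 and 777 FPKM. Their ranks among the 25175 symbols were 71, 68 and 59. The atrial hormone gene Nppa (GRCm38 chromosome 4, 148000722 to 148002079, plus strand) was lower than these, at 174, 167 and 148 FPKM, with rank 343 of all symbols. Lactate dehydrogenase A, Ldha (GRCm38 chromosome 7, 46841475 to 46855627, plus strand), which converts pyruvate to lactate, had 1883, 1885 and 1877 FPKM, with an SD of 0.218% of its mean. The largest spread among the 5 was that of Nppa, whose SD was 8.37% of its mean. Of the annotated sequence of Nppa, 53.4% of 50-base windows also occur in the overlapping gene model Gm13054, so its level is uncertain where reads could be given to either.

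**Figure D1:**
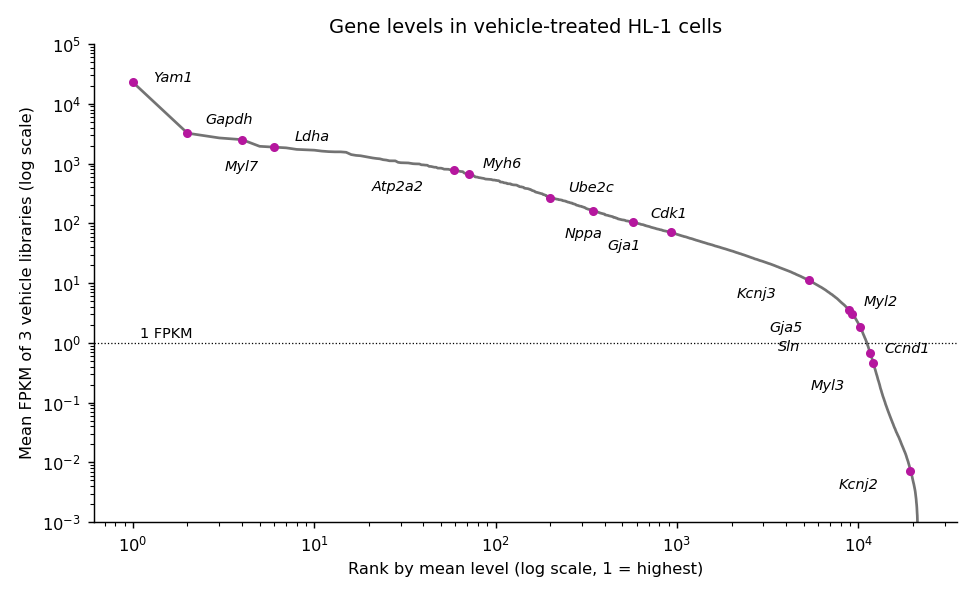
Mean FPKM of the 3 vehicle libraries (y axis, log scale) against rank among all symbols (x axis, log scale, 1 being the highest), with named genes as points and 1 FPKM as a dotted line. Myl7, Gapdh and Ldha lie above 1000 FPKM, Atp2a2 and Myh6 between 100 and 1000 FPKM, and Myl3, Ccnd1 and Kcnj2 below 1 FPKM.

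The most abundant messages came from protein synthesis, the mitochondrial genome, the sarcomere and glycolysis. Of the 100 highest symbols, 36 encode cytosolic ribosomal proteins, 11 are mitochondrially encoded mRNAs, 9 are members of the sarcomere lists and 6 belong to glycolysis. These 100 symbols held 31.2%, 25.9% and 33.2% of summed FPKM. With Yam1 left out, the shares were 25.9%, 26.0% and 26.3%, so the low value of vehicle 2 was present only with Yam1 in the sum. The 83 cytosolic ribosomal protein symbols held 11.3% ± 0.611 (SD, n = 3) of summed FPKM, and the 45 listed ones were all above 100 FPKM, from Rps23 at 184, 180.0 and 171 to Rplp0 at 1881, 1755 and 1851. The highest messages outside the ribosome and the mitochondrial genome included Gapdh, the glycolytic dehydrogenase, at 3290.2, 3169 and 3197 FPKM and the elongation factor Eef1a1 at 1913, 2050.4 and 1856. Between these came Myl7, the atrial regulatory light chain of myosin. Among the 20 highest named genes were also Cst3, a secreted inhibitor of cysteine proteases, at 1907, 1551 and 1559 FPKM, and Gpx3, a secreted glutathione peroxidase, at 1232, 1084 and 1107 FPKM. So were Atp5b, the catalytic subunit of ATP synthase (1567 ± 82.95 FPKM, mean ± SD, n = 3), the proline isomerase Ppia (1410.1 ± 39.5), the chaperones Hsp90ab1 (1023 ± 119.9) and Hspa8 (1006 ± 25.3), and the tubulin Tuba1b (952 ± 19.6). Lars2, the mitochondrial leucyl-tRNA synthetase, was listed at 1212, 2150.4 and 1807 FPKM, and vehicle 1 lay well below the other libraries. Its SD was 27.6% of its mean, above the 95th percentile of 19.1% among genes with a mean of at least 5 FPKM. Whether all reads counted for Lars2 came from its message was not tested, so its level is uncertain. Nuclear protein-coding genes among the 100 highest had a median longest annotated transcript of 1532 bases (82 genes), shorter than the 3448.5 bases of the 10122 such genes at 1 FPKM or more. The part of transcript length in the ranking was not tested.

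Most genes of the sarcomere lists reached 1 FPKM. These lists hold skeletal and smooth muscle forms, such as Tnnt3 and Acta2, beside the cardiac ones. The counts and the sum below include them. Of 19 thick-filament genes 15 reached 1 FPKM, of 17 thin-filament genes 15, and of 20 Z-disc and costamere genes 16, against 44.3% of all symbols. Together these 56 genes held 3.18%, 3.41% and 2.99% of summed FPKM, or 3.43%, 3.41% and 3.31% without Yam1. Myl7 (GRCm38 chromosome 11, 5896637 to 5898782, minus strand) was the highest of them, at 2689, 2474 and 2362 FPKM. The thin filament was led by the cardiac troponins Tnnt2, which ties troponin to tropomyosin, at 1925, 1572 and 1596 FPKM, and Tnni3, the inhibitory subunit, at 1464, 1392 and 1247 FPKM. In both, vehicle 1 was the highest library. Tpm1, the main striated muscle tropomyosin, had 838 ± 13.7 FPKM (mean ± SD, n = 3).

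Other parts of the myofibril were present at lower levels. Mybpc3, the cardiac myosin-binding protein C, was at 172, 172 and 158 FPKM and the ubiquitin ligase Trim63, which marks sarcomere proteins for breakdown, at 55.5, 54.4 and 51.9. The Z-disc list was led by the small heat shock protein Cryab at 273, 254 and 233 FPKM, followed by Smpx (101 ± 8.71 FPKM, mean ± SD, n = 3), the intermediate filament desmin, Des (89.2 ± 3.25), the PDZ-LIM protein Ldb3 (62.2 ± 1.91), the cross-linker Actn2 (50.7 ± 0.707) and Pdlim5 (40.8 ± 3.02). Vehicle 1 was again the highest for Cryab. The lowest Z-disc members were Myoz1 (0.701, 0.214 and 0.21 FPKM) and Myoz3 (0.197, 0.00703 and 0.213 FPKM), which belong mainly to skeletal muscle, and Xirp2 and Myot, whose means were 0.00598 and 0.00307 FPKM.

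Fetal and smooth muscle isoforms were transcribed beside the adult cardiac ones. Tnni1, the slow skeletal troponin I that the fetal heart uses, stood at 848, 828 and 739 FPKM and made up 36.7%, 37.3% and 37.2% of the sum of Tnni1 and Tnni3. The smooth muscle actin Acta2 (GRCm38 chromosome 19, 34241090 to 34255590, minus strand) reached 1226, 1175 and 1243 FPKM, 64.0% ± 1.13 (SD, n = 3) of its sum with Actc1, and lay above Actc1 in all 3 libraries. Myl9, the regulatory light chain of smooth muscle and non-muscle myosin, was at 1694, 1572 and 1478 FPKM and was likewise among the 20 highest named genes. Cardiac troponin C, Tnnc1, was at 58.04, 57.5 and 51.5 FPKM and its fast skeletal counterpart Tnnc2 at 52.95, 64.2 and 55.2 FPKM. Tnnc2 lies on the strand opposite to Ube2c, and 64.7% of its 50-base windows occur in Ube2c, a mitotic gene at 297, 263 and 249 FPKM, so the level of Tnnc2 is uncertain. The fast skeletal troponin T, Tnnt3, was at 0.314, 0.365 and 0.319 FPKM.

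The windows upstream of 2 of these genes are shown because each holds a CArG box, the motif bound by serum response factor, within its last 100 bases before the transcription start. They are the 250 bases before the start in RefSeq on GRCm38.p6, written 5′ to 3′ on the strand of the gene, with the CArG box in capitals. The Myl7 window is chr11:5898783-5899032, minus strand, and that of Actc1 is chr2:114052876-114053125, minus strand. The Actc1 window lies inside the gene as GENCODE places it (114047282 to 114053548), so its distances hold for the RefSeq start only.
Myl7: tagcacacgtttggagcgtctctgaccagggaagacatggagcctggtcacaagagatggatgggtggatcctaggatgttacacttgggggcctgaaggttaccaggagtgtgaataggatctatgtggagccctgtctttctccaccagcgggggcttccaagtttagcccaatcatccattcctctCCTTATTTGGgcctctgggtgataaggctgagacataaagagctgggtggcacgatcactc
Actc1: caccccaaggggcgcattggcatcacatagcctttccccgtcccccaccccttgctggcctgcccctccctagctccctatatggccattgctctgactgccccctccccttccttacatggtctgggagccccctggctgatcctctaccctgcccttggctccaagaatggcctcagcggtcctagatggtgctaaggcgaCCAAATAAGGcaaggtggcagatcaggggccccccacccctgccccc
The CArG box lay 61 to 52 bases before the start in Myl7 and 47 to 38 bases before it in Actc1. On both strands, a CArG box was found for 7 of the 44 sarcomere genes with a window (15.9%), against 1.62% of all 27025 genes with a window and 1.49% of the 8244 such genes at 1 FPKM or more. A MEF2 site was found for 5 of the 44 (11.4%), against 0.592% and 0.619%. The GATA letters AGATAA were found for 10 of the 44 (22.7%), against 11.4% and 6.82%, and TATAAA for 6 (13.6%), against 14.3% and 7.31%. A match is a description of the letters only.

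Among atrial-enriched genes 19 of 23 reached 1 FPKM (82.6%), and among ventricular-enriched genes 7 of 15 (46.7%). The share was 44.3% over all symbols and 52.3% over symbols that match a protein-coding gene, so the ventricular share lay between these. The summed level of the atrial list was 5500 FPKM in vehicle 1, 5190 in vehicle 2 and 4993 in vehicle 3, and that of the ventricular list 379.7, 379.9 and 384 FPKM. Besides Myl7 the atrial list was led by Pam, the enzyme that amidates peptide hormones and a membrane protein of atrial secretory granules, at 1018, 971 and 991 FPKM, and Myl4, the atrial essential light chain, at 921, 897 and 822 FPKM. Stard10, a lipid transfer protein, had 194, 182 and 174 FPKM and Clu, a secreted chaperone, 148, 152 and 144 FPKM. Both stood near Nppa. Also high were Kcnj5, a subunit of the acetylcholine-activated potassium channel, at 82.4, 81.6 and 85.3 FPKM, and Corin, the protease that processes the Nppa prohormone, at 58.95, 58.4 and 56.2 FPKM, which was chosen for mention after its value was seen. Not every atrial gene was high. Upk3b was at 0.964, 0.78 and 0.731 FPKM and Sbk3 at 0.707, 0.338 and 0.554, while Kcna5, the channel of the ultrarapid potassium current, was at 0.0723, 0.0057 and 0.00949 FPKM. The mean of Kcna5 lay under 0.0702 FPKM, the level at or under which 99% of the receptor genes lay.

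Several genes of the ventricular list are known from atrial muscle too, and some of these were well expressed. Fhl2, a LIM-domain cofactor, was at 119, 115 and 123 FPKM, Gja1 at 69.1, 68.01 and 74.4, the histone methyltransferase Smyd1 at 64.4, 66.6 and 63.6 and Pln at 62.6, 63.7 and 66.5 FPKM. Lrrc10, a heart-specific leucine-rich repeat protein, had 12.4, 12.5 and 12.6 FPKM. The slow heavy chain Myh7 was at 48.3, 49.6 and 38.2 FPKM, lowest in vehicle 3. The ventricular light chains were low, with Myl2 at 2.74, 3.87 and 3.88 FPKM and Myl3 at 0.461, 0.131 and 0.788 FPKM. The ventricular transcription factor Irx4 was at 0.0133, 0.00558 and 0.0171 FPKM, Hand1 at 0.0535, 0.0374 and 0.0218 FPKM, and Irx1, of the same family as Irx4, at 0.0362, 0.0274 and 0.0172 FPKM. No library placed any of these last 3 above 0.1 FPKM. In a bulk sample, fewer cells with a transcript and less transcript per cell cannot be told apart, so these levels are averages over the culture.

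**Figure D2:**
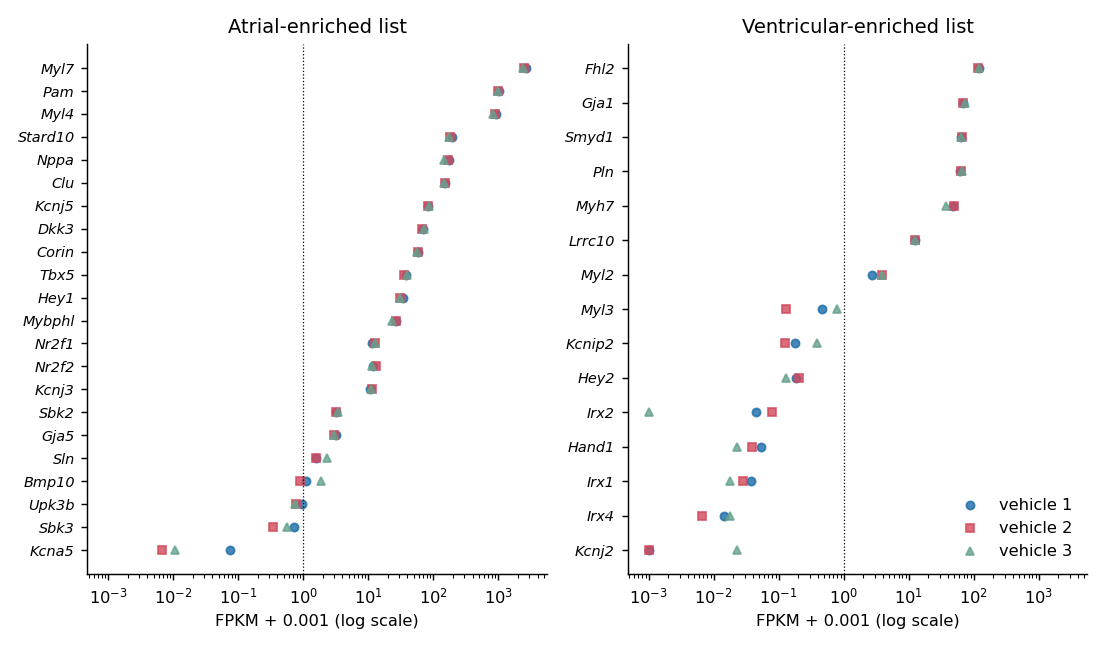
FPKM plus 0.001 (x axis, log scale) of 22 of the 23 atrial-enriched genes (left) and 15 ventricular-enriched genes (right) in vehicle 1 (circles), vehicle 2 (squares) and vehicle 3 (triangles), with 1 FPKM as a dotted line. In the atrial list 19 of the genes drawn have a mean of at least 1 FPKM and in the ventricular list 7, and the libraries overlap closely except for genes under about 1 FPKM.

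Isoform pairs were compared within each library as the log2 ratio of both values with 0.01 FPKM added, so scaling between libraries cancels. Of 32 pairs, 21 had the first-named gene at least 2-fold higher in all 3 libraries, 4 had its partner at least 2-fold higher in all 3, and 7 had neither. An exact sign-flip permutation test of 3 libraries cannot give a two-sided p below 0.25, so no p is given. Myh6 over the slow heavy chain Myh7 had log2 ratios of 3.81, 3.82 and 4.02, and Myh6 made up 93.6% ± 0.489 (SD, n = 3) of their sum. The 2 heavy chains share 1381 windows of 50 bases, 20.2% of those of Myh6, so reads could be split between them. Of the windows of Myh7, 20.04% occur in Myh6 or in other genes. Myl7 over Myl2 had log2 ratios of 9.93, 9.32 and 9.25 and Myl4 over Myl3 10.93, 12.64 and 10.01. The natriuretic peptides showed a log2 ratio of Nppa over Nppb of 7.81, 7.32 and 6.41, with Nppb at 0.769, 1.04 and 1.73 FPKM. The acetylcholine-activated channel gene Kcnj3 was at 10.6, 11.4 and 11.1 FPKM, while the ventricular inward rectifier Kcnj2 was listed at 0, 0 and 0.0219 FPKM, so their ratio rests on the 0.01 FPKM added and no fold is given.

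In 3 pairs of atrial and ventricular genes the ratio favoured the ventricular or general cardiac member. Sarcolipin, Sln, the atrial brake of the calcium pump, was at 1.58, 1.56 and 2.29 FPKM and phospholamban, Pln, its ventricular counterpart, at 62.6, 63.7 and 66.5 FPKM, a log2 ratio of -5.30, -5.34 and -4.85. Of the annotated sequence of Pln, 56.2% of windows occur in other gene models, most of them in Gm47644, so the level of Pln is uncertain. Among connexins, Gja5, the atrial and conduction gap junction gene, was at 3.21, 2.93 and 2.93 FPKM and Gja1 at 69.1, 68.01 and 74.4 FPKM (log2 ratios of -4.42, -4.53 and -4.66). Mybphl, an atrial relative of myosin-binding protein C, stood at 26.5, 26.2 and 23.1 FPKM against Mybpc3 (log2 ratios of -2.70, -2.71 and -2.77). In all 3 pairs the spread between libraries was under 0.3 log2 units (SD of 0.27, 0.12 and 0.0362).

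**Figure D3:**
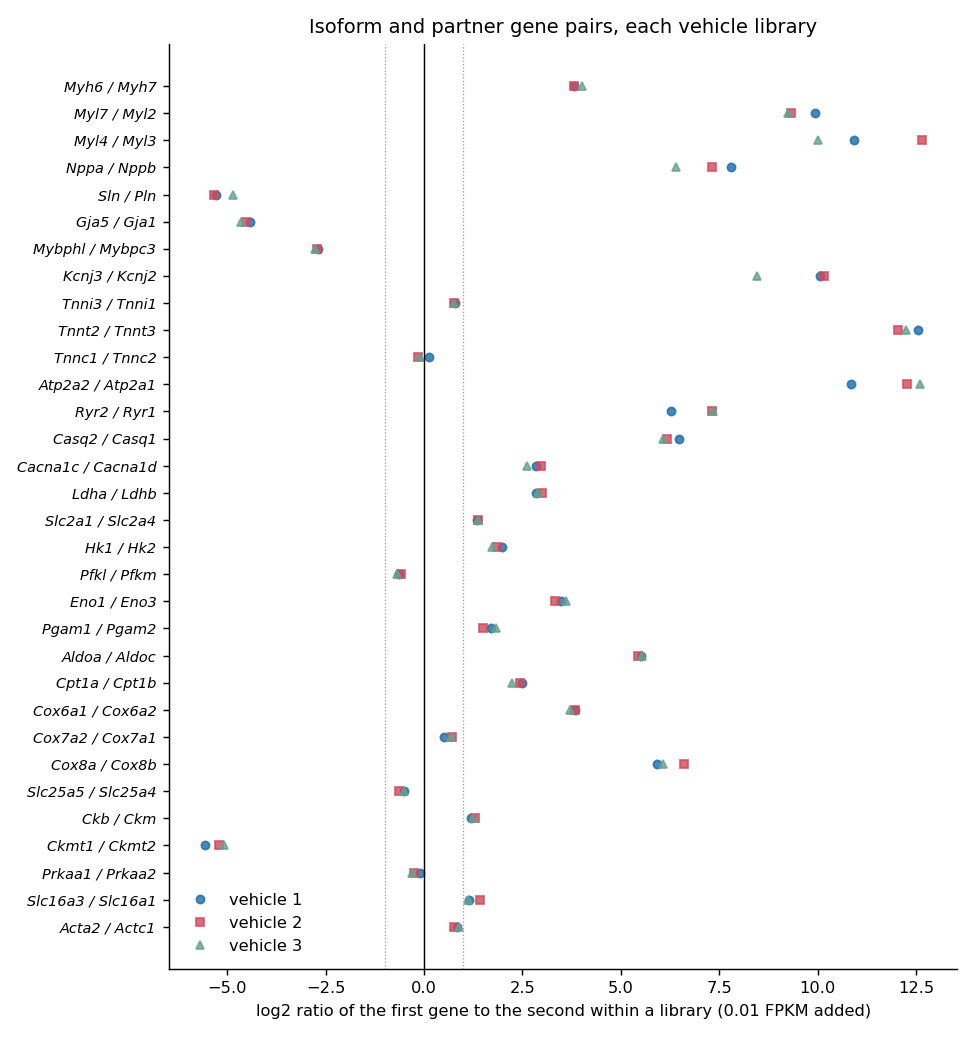
Log2 ratio of the first-named to the other gene of each of 32 pairs (x axis, 0.01 FPKM added to both) in vehicle 1 (circles), vehicle 2 (squares) and vehicle 3 (triangles), with dotted lines at a 2-fold difference. Of the pairs, 21 lie to the right of the right dotted line in all 3 libraries, and Sln/Pln, Gja5/Gja1, Mybphl/Mybpc3 and Ckmt1/Ckmt2 lie to the left of the left one.

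Calcium handling followed the cardiac isoforms. Of 26 genes 22 reached 1 FPKM (84.6%, against 44.3% of all symbols). Atp2a2 exceeded the fast skeletal pump Atp2a1, at 0.39, 0.156 and 0.115 FPKM, by log2 ratios of 10.85, 12.26 and 12.60. Casq2, the calcium-binding protein of the cardiac sarcoplasmic reticulum, had 156, 155 and 150.4 FPKM against 1.75, 2.12 and 2.21 for the skeletal Casq1. The cardiac calcium release channel Ryr2 was low for a core muscle gene, at 8.55, 10.5 and 9.11 FPKM, yet above the skeletal Ryr1 (0.101, 0.0559 and 0.0459 FPKM) and Ryr3 (0.0131, 0.141 and 0.00531 FPKM). The sodium-calcium exchanger Slc8a1, which exports calcium, was at 67.5, 67.2 and 71.4 FPKM, the calcium sensor S100a1 at 86.3, 74.2 and 89.4 and the lumenal chaperone Calr at 397, 372 and 379 FPKM. Of the L-type channel subunits Cacna1c was at 19.7, 20.4 and 17.8 FPKM and Cacna1d at 2.75, 2.59 and 2.899 FPKM. The T-type channel genes, which the embryonic heart and pacemaker cells use, were above both in every library, with Cacna1h at 47.2, 42.4 and 36.1 FPKM and Cacna1g at 24.3, 25.5 and 26.4 FPKM. Cacna1h was chosen for mention after its value was seen.

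Ion channel genes were mixed, with 13 of 21 at 1 FPKM or more (61.9%, against 44.3% of all symbols). The highest was Kcnh2, the channel of the rapid delayed rectifier current, at 165, 149 and 138 FPKM. Of the subunits of the slow delayed rectifier, Kcne1 was at 46.2, 35.3 and 37.8 FPKM and Kcnq1 at 21.8, 21.9 and 20.8 FPKM, and the pore of the ATP-sensitive channel, Kcnj11, at 21.5, 19.9 and 19.6 FPKM. Abcc9, which encodes a regulatory subunit of such channels, had a mean of 0.0886 FPKM, and no other regulatory subunit gene was listed. Hcn4, the main pacemaker channel gene of the sinus node, was at 1.51, 1.57 and 1.31 FPKM and lies outside the naming rule. Genes of the transient outward current were under 1 FPKM, with Kcnd3 at 0.0359, 0.0159 and 0.00512 FPKM and Kcnip2, named after its value was seen, at 0.178, 0.122 and 0.391 FPKM. All 14 genes of the intercalated disc, the junction between heart muscle cells, reached 1 FPKM, from Gja5 to the catenin Ctnnb1 at 139, 157 and 145 FPKM, and included the desmosomal genes Jup (69.2 ± 4.43 FPKM, mean ± SD, n = 3) and Dsp (55.96 ± 0.939).

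Of 28 cardiac transcription factors 21 reached 1 FPKM (75%, against 44.3% of all symbols). Nkx2-5, the homeobox factor of heart muscle, was the highest at 159, 129 and 118 FPKM, with vehicle 1 above the others. Gata4 was at 86.2, 90.6 and 97.1 FPKM, the T-box factor Tbx20 at 81.9, 77.2 and 78.997, the basic helix-loop-helix factor Hand2 at 79.9, 62.4 and 63.7, Mef2a at 45.2, 48.7 and 43.5 and Tbx5 at 38.2, 35.4 and 39.4 FPKM. Isl1, a factor of cardiac progenitors and the sinus node, was at 0.037, 0.00347 and 0.0129 FPKM. Hand1, Isl1 and Irx4, among the lowest members, had means under the 0.0702 FPKM level of the receptor genes.

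Of the receptors through which hormones and nerves act on the heart, 10 of 20 reached 1 FPKM (50%), near the 44.3% of all symbols. Npr3, the natriuretic peptide clearance receptor, was at 20.7, 17.1 and 19.7 FPKM and Chrm2, the muscarinic receptor through which the vagus nerve slows the heart, at 15.1, 15.2 and 16.04 FPKM. The β1-adrenergic receptor Adrb1 was at 12.7, 12.1 and 12.3 FPKM, with the 3 libraries close together. The α1B-adrenergic receptor Adra1b had 13.8, 12.3 and 10.1 FPKM and Adra1a 0.0306, 0.0271 and 0.00445, and the 3 libraries did not overlap between these genes. Npr1, the receptor for Nppa, was at 8.22, 8.11 and 8.44 FPKM and the insulin-like growth factor receptor Igf1r at 7.99, 8.33 and 8.29 FPKM. Of 20 secreted factors 13 reached 1 FPKM (65%, against the same 44.3%). Besides Nppa the highest were Igf2, a fetal growth factor, at 84.8, 68.95 and 66.4 FPKM, the vasodilator Adm at 63.3, 57.01 and 60.1 and Vegfa, which drives vessel growth, at 40.1, 35.8 and 40.2 FPKM. For Igf2, 62.1% of windows occur in other gene models, so its level is uncertain. Neuregulin 1, Nrg1, which signals from vessels to muscle, was at 0.0719, 0.0955 and 0.039 FPKM and the cytokine pleiotrophin, Ptn, at 0.0499, 0.0681 and 0.122 FPKM.

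Metabolic genes were almost all expressed: 108 of the 115 listed reached 1 FPKM (93.9%, against 44.3% of all symbols). Glycolysis held 2.68%, 2.97% and 2.74% of summed FPKM, or 2.89%, 2.97% and 3.03% without Yam1. The citric acid cycle list held 0.913% ± 0.0586 (SD, n = 3) and the fatty acid list 0.411% ± 0.0238. Without Yam1 these shares were 0.967% ± 0.0220 and 0.435% ± 0.0102. In glycolysis 18 of 21 genes were at 1 FPKM or more, led by Gapdh, Ldha, Eno1 (1253, 1166 and 1388 FPKM), Aldoa (1229, 1160.3 and 1206 FPKM), Tpi1 (862, 878 and 768 FPKM) and Gpi1 (548, 549.6 and 532 FPKM). Among the members under 1 FPKM were the enolase of nerve cells, Eno2 (0.728, 0.22 and 0.883 FPKM), and the pyruvate kinase of liver, Pklr (0.0178, 0.0236 and 0.0598 FPKM). Gapdh and Eno1 have processed copies elsewhere in the genome and share 25.1% and 26.0% of their windows with other gene models.

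Alternative forms of glycolytic enzymes were unequal in level, with no single rule for which form was higher. Ldha, the main form of skeletal muscle, made up 88.3% ± 0.524 (SD, n = 3) of its sum with the heart form Ldhb, which was at 262, 237 and 251 FPKM. The general enolase Eno1 exceeded the muscle enolase Eno3, at 113, 117 and 114 FPKM, by log2 ratios of 3.47, 3.32 and 3.60. Aldoa, the aldolase of muscle and many other tissues, exceeded Aldoc, the brain form, by 5.52, 5.43 and 5.53. Pgam1 exceeded the muscle mutase Pgam2 by 1.69, 1.49 and 1.82, with Pgam1 sharing 36.2% of its windows with other models. The hexokinase Hk1 exceeded Hk2 by 1.99, 1.86 and 1.73, the general glucose transporter Slc2a1 exceeded the insulin-responsive Slc2a4 by 1.36, 1.37 and 1.38, and Slc16a3, the lactate exporter of glycolytic muscle, at 114, 129 and 108 FPKM, exceeded the widely used Slc16a1 by 1.15, 1.42 and 1.12. All 3 phosphofructokinase genes were expressed, the platelet form Pfkp, chosen for mention after its value was seen, at 90.7, 87.8 and 91.7 FPKM, the muscle form Pfkm at 71.97, 75.97 and 71.2 FPKM and the liver form Pfkl at 46.7, 51.03 and 44.02 FPKM. In every library Pfkp was the highest and Pfkl the lowest.

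Genes for mitochondrial fuel use were present throughout. All 30 genes of fatty acid uptake and oxidation reached 1 FPKM. Fabp3, the fatty acid carrier of heart muscle, was at 295, 321 and 283 FPKM, the electron carrier subunit Etfb at 204, 203 and 182, the long-chain dehydrogenase Acadl at 164, 141 and 146, the trifunctional protein subunit Hadha at 154, 137 and 150.0 and lipoprotein lipase, Lpl, at 134, 129 and 147 FPKM. The liver form of carnitine palmitoyltransferase, Cpt1a, which gates entry of fatty acids into mitochondria, was at 42.9, 44.9 and 45.2 FPKM, above the muscle form Cpt1b at 7.64, 8.23 and 9.51 FPKM. Cpt1b shares 78.6% of its windows with the overlapping model Gm44502, so its level is uncertain. The lowest members were Slc27a1, Acsl4, Ppara and Ppargc1b, of which the nuclear receptor Ppara was at 3.52, 2.91 and 3.83 FPKM and the coactivator Ppargc1b at 1.64, 2.08 and 1.61 FPKM. The 22 genes of the citric acid cycle were all above 10 FPKM, from Suclg2 at 16.1, 15.2 and 15.7 to the malate dehydrogenase Mdh1 at 493, 476 and 482 FPKM. Its mitochondrial counterpart Mdh2 was at 469, 455 and 449 FPKM and the isocitrate dehydrogenase Idh2 at 478, 458 and 437 FPKM.

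The 13 mitochondrially encoded mRNAs held 3.15%, 3.26% and 3.21% of summed FPKM, or 3.39%, 3.26% and 3.55% without Yam1. Vehicle 2 was thus the highest library with Yam1 in the sum and the lowest without it. The oxidase subunit mt-Co1 led at 2816, 2543 and 2673 FPKM and mt-Nd6, the only one encoded on the light strand, was lowest at 28.8, 22.996 and 26.5 FPKM. Several share most of their sequence with nuclear copies (100% of windows in mt-Co2 and 99.9% in mt-Co3), so single values are uncertain. Among nuclear subunits of cytochrome oxidase the liver forms exceeded the heart forms for subunit 6a, with Cox6a1 at 746, 709 and 638 and Cox6a2 at 52.4, 49.6 and 48.6 FPKM, and for subunit 8, with Cox8a at 665, 676 and 623 and Cox8b at 11.04, 6.99 and 9.19 FPKM. For subunit 7a the log2 ratio of Cox7a2 over the heart form Cox7a1 was 0.51, 0.71 and 0.69, less than 2-fold. The heart form of the adenine nucleotide translocator, Slc25a4, was at 453, 491 and 431 FPKM and Slc25a5 at 318, 316 and 305 FPKM, also less than 2-fold apart.

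Energy buffering genes gave a divided picture. The mitochondrial creatine kinase of muscle, Ckmt2, was at 72.4, 68.7 and 65.9 FPKM and the ubiquitous form Ckmt1 at 1.52, 1.84 and 1.93 FPKM. In the cytosol the brain form Ckb, at 31.8, 34.1 and 30.8 FPKM, was above the muscle form Ckm, at 13.8, 13.9 and 12.997 FPKM. Myoglobin, Mb, the oxygen store that is among the most abundant messages of adult heart, was at 20.6, 18.2 and 20.9 FPKM with rank 3411, and was chosen for mention after its value was seen. Of the catalytic subunits of AMP kinase, Prkaa1 was at 11.4, 10.8 and 12.2 FPKM and Prkaa2 at 12.2, 12.8 and 15.1 FPKM, less than 2-fold apart in every library.

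Transcripts of dividing cells were present throughout. All 23 measured genes of the DNA replication list and all 25 of the mitosis list reached 1 FPKM, against 44.3% of all symbols. Of these, 22 and 23 reached 10 FPKM, against 22.6% of all symbols. The replication clamp Pcna was at 134, 138 and 142 FPKM, the ribonucleotide reductase subunit Rrm2 at 137, 125 and 129, the helicase subunit Mcm2 at 103, 102 and 98.2 and Mcm7 at 103, 101 and 90.2 FPKM. In mitosis Ube2c, the ubiquitin-conjugating enzyme of the anaphase-promoting complex, led at 297, 263 and 249 FPKM, followed by the spindle protein Tpx2 at 110.4, 104 and 100.5, the kinase Cdk1 at 102, 104 and 106, the topoisomerase Top2a at 103, 89.7 and 93.9 and the kinase Aurka at 95.02, 87.1 and 84.7 FPKM. The 3 libraries were close for Cdk1, whose SD was 1.74% of its mean. The proliferation marker Mki67, chosen for mention after its value was seen, was at 36.7, 36.999 and 36.4 FPKM. Together the 82 proliferation genes held 0.943% of summed FPKM on average, or 0.999% without Yam1, less than the sarcomere lists.

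Control genes of the cell cycle were expressed from both sides. Of 34 genes 29 reached 1 FPKM (85.3%, against 44.3% of all symbols). The cyclin D partner kinase Cdk4 was at 108, 110.4 and 106 FPKM. Genes for inhibitors of that kinase were at similar levels, with Cdkn2a at 117, 105 and 92.5 FPKM, Cdkn2d at 97.2, 96.2 and 91.9 and Cdkn2c at 78.04, 68.4 and 69.96 FPKM. These values are per gene, so different transcripts of Cdkn2a cannot be told apart. The p53 target Cdkn1a, which blocks several cyclin-dependent kinases, was at 90.8, 86.6 and 86.7 FPKM. Of the D-type cyclins almost the whole signal was Ccnd3, at 26.2, 30.3 and 25.97 FPKM, or 97.5% ± 1.56 (SD, n = 3) of the 3 genes together. Ccnd1, chosen like Ccnd3 for mention after its values were seen, was at 1.15, 0.422 and 0.425 FPKM and Ccnd2 at 0.0214, 0.0454 and 0.00479 FPKM. Ccnd1 was higher in vehicle 1 than in the other libraries. Tert, the telomerase catalytic subunit, was at 0.00619, 0.0549 and 0.00886 FPKM and the N-myc gene Mycn at 0.0685, 0.111 and 0.0215 FPKM.

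Windows upstream of 2 mitotic genes are shown because they hold both motifs known from genes of late cell cycle phases, the CCAAT box and the cell cycle genes homology region (CHR, searched as TTTGAA or TTCGAA). They are again the 250 bases before the RefSeq start on GRCm38.p6, 5′ to 3′ on the strand of the gene, with both motifs in capitals. Matches on the opposite strand read ATTGG or TTCAAA. The Ccnb2 window, of the mitotic cyclin B2, is chr9:70421555-70421804, minus strand, and that of Ube2c is chr2:164769679-164769928, plus strand.
Ccnb2: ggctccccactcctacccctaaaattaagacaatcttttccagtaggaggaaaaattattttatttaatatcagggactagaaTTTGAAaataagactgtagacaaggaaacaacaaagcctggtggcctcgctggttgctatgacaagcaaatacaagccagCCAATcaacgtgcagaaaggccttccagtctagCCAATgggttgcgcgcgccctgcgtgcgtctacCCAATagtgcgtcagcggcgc
Ube2c: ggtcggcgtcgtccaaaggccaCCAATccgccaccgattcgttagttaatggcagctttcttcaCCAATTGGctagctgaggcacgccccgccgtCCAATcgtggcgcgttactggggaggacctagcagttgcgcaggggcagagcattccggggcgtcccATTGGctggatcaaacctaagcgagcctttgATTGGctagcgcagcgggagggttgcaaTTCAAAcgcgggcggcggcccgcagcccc
Ccnb2, which was at 41.2, 44.99 and 44.1 FPKM and was chosen for this window and not by its level, has 3 CCAAT boxes, 54 to 50 bases before the start in the middle one, and 1 CHR match. That CHR match lay 167 to 162 bases before the start, further from it than all 3 CCAAT boxes. Ube2c has 6 CCAAT boxes, 2 of which overlap on opposite strands, and 1 CHR match, 29 to 24 bases before the start. The end of the Ube2c window, with the CHR match, lies inside the gene as GENCODE places it (164769898 to 164778822). Distances in Ube2c therefore hold for the RefSeq start only. Over the mitosis list, 17 of 22 genes with a window had a CCAAT box on either strand (77.3%), against 37.5% of all 27025 genes with a window and 41.4% of those at 1 FPKM or more. A CHR match was found for 9 of the 22 (40.9%), against 19.6% and 14.4%. For the replication list the counts were 11 of 19 (57.9%) for CCAAT and 4 of 19 (21.1%) for the CHR. The core ACGTG of hypoxia response elements was found for 7 of 20 glycolytic genes (35%), against 18.5% and 26.1%.

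Genes that define other cell types were mostly under 1 FPKM. Of 169 genes in 16 lineage lists, 29 reached 1 FPKM (17.2%, against 44.3% of all symbols), and 84 had means at or under 0.0702 FPKM. The lymphocyte, hepatocyte and pancreas lists had 0 of 12, 0 of 10 and 0 of 9 members at 1 FPKM. Their highest members were the B cell receptor subunit Cd79a, at 0.387, 0.188 and 0.0661 FPKM, the fetal serum protein Afp, at 0.51, 0.366 and 0.139 FPKM, and the hormone Sst, at 0.219, 0 and 0.158 FPKM. Myog, the myogenin of skeletal muscle, Nkg7 of killer cells, the β-globin Hbb-bs and Tnp1 of sperm were listed at 0 in all 3 libraries. In the macrophage list only Cd68 reached 1 FPKM, at 1.5003, 0.745 and 0.785 FPKM, with vehicle 1 the single library above 1. Itgam followed at 0.562, 1.18 and 0.478 FPKM, and Mrc1, Csf1r and Cd14 had means of 0.0987, 0.0524 and 0.0422 FPKM.

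Cells that surround muscle in the heart left little signal. In the endothelial list 2 of 12 genes reached 1 FPKM, the receptor Kdr at 7.86, 8.504 and 8.34 FPKM and the adhesion protein Pecam1 at 1.07, 1.28 and 0.84 FPKM. The next members were Nos3, Tie1 and Tek, with means of 0.419, 0.22 and 0.216 FPKM, and the summed level of the list was 10.2, 11.2 and 10.3 FPKM. In the fibroblast list only the collagen receptor Ddr2 reached 1 FPKM, at 23.8, 21.8 and 25.5 FPKM, while collagen Col1a1 was at 0.685, 1.12 and 0.309 FPKM, Col3a1 at 0.271, 0.304 and 0.501 FPKM and the matrix proteoglycan Dcn at 0.285, 0.291 and 0.263 FPKM. The epicardial list had 1 of 9 members at 1 FPKM, the factor Tbx18 at 1.69, 1.97 and 1.71 FPKM, with Wt1 at 1.13, 0.358 and 0.709 FPKM.

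Lists of other muscle types had shares at 1 FPKM near or below the 44.3% of all symbols, save that of pacemaker cells. Of the smooth muscle list 6 of 12 genes reached 1 FPKM (50%): Acta2, the actin-binding protein Tagln at 176, 169.6 and 151 FPKM, Smtn at 31.3, 28.5 and 27.5, Notch3 at 1.56, 1.92 and 1.66, Actg2 at 1.33, 1.49 and 1.31 and Cnn1, which falls outside the naming rule, at 1.16, 1.47 and 1.34 FPKM. The smooth muscle heavy chain Myh11, the defining contractile gene of that lineage, was at 0.0398, 0.0803 and 0.032 FPKM and was chosen for mention after its value was seen. Tagln shares 58.3% of its windows with other gene models. Of the skeletal list 4 of 16 reached 1 FPKM (25%), led by the perinatal heavy chain Myh8 at 18.7, 18.5 and 18.95 FPKM, then the light chain Mylpf at 5.31, 1.96 and 2.42, the progenitor factor Pax3 at 3.71, 2.87 and 2.51 and Casq1. For Mylpf vehicle 1 was the highest library. Of 57 genes that share windows with Myh8, the most are shared with Myh2, a skeletal heavy chain at 0.404, 0.476 and 0.291 FPKM, outside the naming rule. The pacemaker list had 6 of 10 at 1 FPKM (60%), with Cacna1g highest and Gjd3, a conduction connexin, at 5.26, 3.62 and 4.57 FPKM, Shox2 at 1.55, 1.53 and 1.76 FPKM and Hcn4 as above.

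Several lists of other lineages had only 1 to 3 members at 1 FPKM. The fatty acid carrier Fabp4, of the adipocyte list, was at 51.2, 51.01 and 45.6 FPKM, while the other 7 members, among them Pparg (0.173, 0.108 and 0.0936 FPKM) and Adipoq (0.176, 0.147 and 0.00341 FPKM), stayed under 1 FPKM. The cytoskeletal protein Map2, of the neuronal list, was at 10.1, 9.65 and 10.7 FPKM with Syt1 next at 0.928, 0.645 and 0.685 FPKM. In the glial list 2 of 10 members reached 1 FPKM, the water channel Aqp4 at 7.097, 6.34 and 7.18 FPKM and the folate enzyme Aldh1l1 at 0.869, 1.39 and 0.993 FPKM. In the epithelial list 3 of 10 did so, the keratins Krt18 at 8.12, 6.71 and 6.03 and Krt8 at 1.27, 1.13 and 1.601 FPKM and the adhesion protein Epcam at 0.989, 1.41 and 1.41 FPKM. The red cell list had 1 of 8 measured members, the erythropoietin receptor Epor at 3.67, 3.01 and 2.21 FPKM. In the pluripotency list only Nanog passed 1 FPKM in its mean, at 1.49, 0.969 and 1.16 FPKM, with Pou5f1 at 0.0572, 0.194 and 0.237 FPKM.

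**Figure D4:**
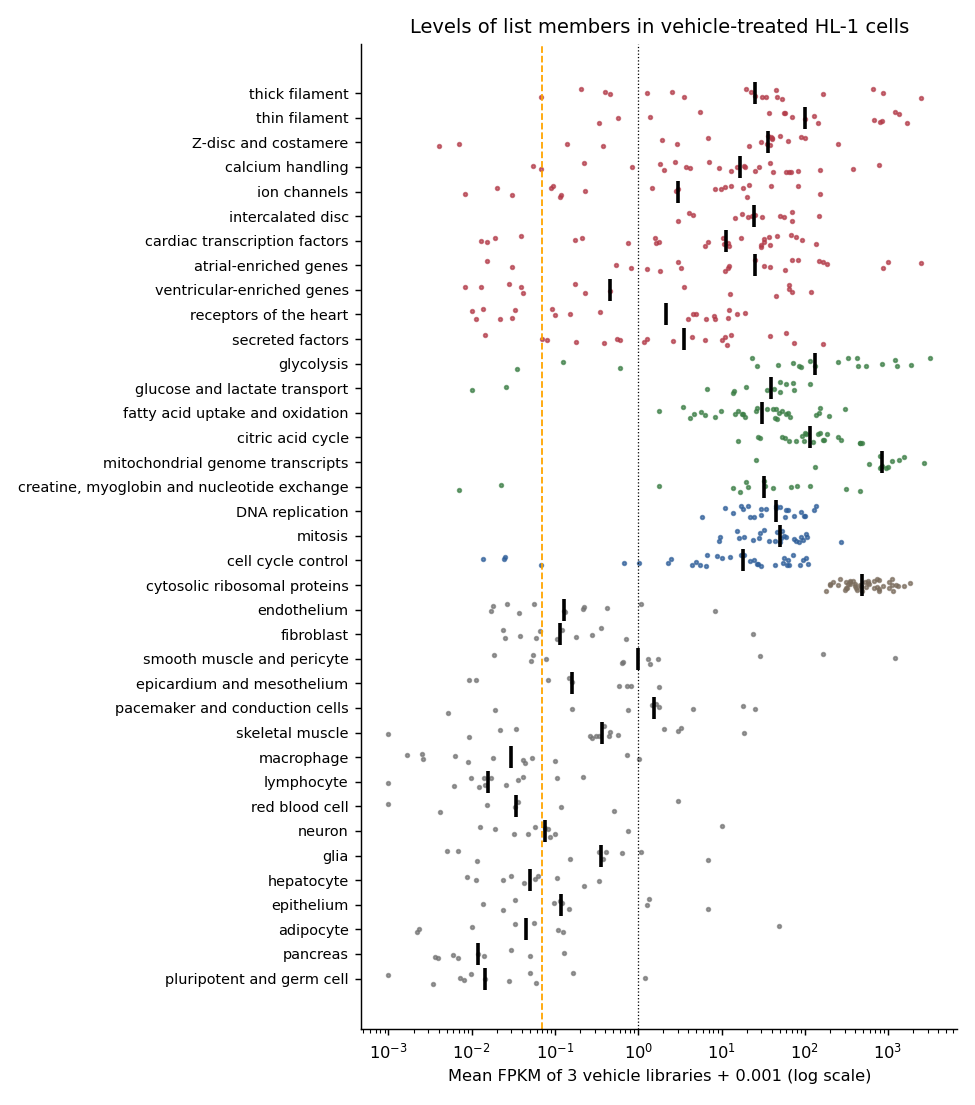
Mean FPKM of the 3 vehicle libraries plus 0.001 (x axis, log scale) of each gene of 37 lists (y axis, points; red muscle, green metabolism, blue proliferation, brown ribosome, grey other lineages), with the median of a list as a black bar, 1 FPKM as a dotted line and the 99th percentile of the receptor genes, 0.0702 FPKM, as a dashed line. The median is at or above 1 FPKM in every muscle list except the ventricular one (0.46 FPKM), while of the 16 lineage lists only that of pacemaker cells has a median above 1 FPKM (1.54 FPKM).

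For most genes the 3 libraries lay close together. Among 7905 genes with a mean of at least 5 FPKM the median SD was 7.02% of the mean and the 95th percentile 19.1%, and 36 genes (0.455%) varied more than 2-fold between the lowest and highest library. By level the median fell from 13.0% between 1 and 5 FPKM to 5.21% between 100 and 1000 FPKM. Of the 36 genes, 11 were listed at 0 in a library and 18 were miRNA, snoRNA, other small RNA or mitochondrial tRNA symbols. Besides Yam1, genes listed at 0 in at least 1 library were mostly of these kinds, such as the mitochondrial tRNA gene mt-Te (11.3, 19.98 and 0 FPKM) and the miRNA genes Mir7672 (41.01, 0 and 0 FPKM) and Mir7046 (0, 20.7 and 0 FPKM). No gene of the muscle, metabolism or proliferation lists was among the 36.

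**Figure D5:**
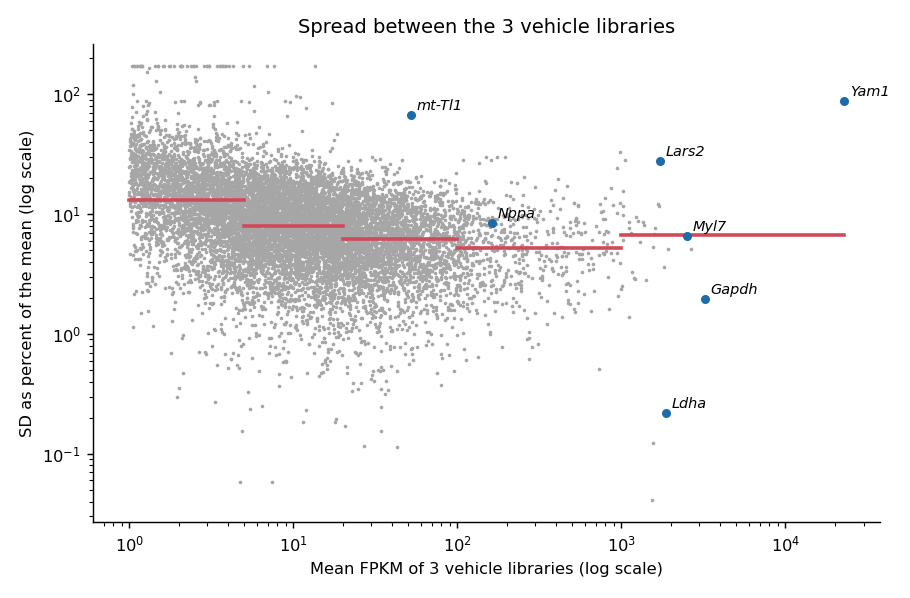
SD over the 3 vehicle libraries as a percent of the mean (y axis, log scale) against mean FPKM (x axis, log scale) for genes with a mean of at least 1 FPKM, with the median of 5 level ranges as red bars. Yam1, Lars2, mt-Tl1, Myl7, Ldha, Nppa and Gapdh are marked. The medians run from 13.0% in the lowest range to 5.21% between 100 and 1000 FPKM, with Yam1, Lars2 and mt-Tl1 far above them and Ldha far below.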

How the data were processed

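RNA sequencing values of the 3 vehicle libraries were used, grouped by the treatment in the labels. Per the file headers, the deposited columns are a gene symbol and its FPKM. STAR, Bowtie2, Bowtie and Cufflinks, without versions or roles, are named in the submitters' processing notes, as are the builds mm10 and GRCm38. For annotation, use of strand and filters, the sources used here give nothing. Because FPKM is scaled to the fragments of the whole library, 1 very abundant transcript can lower all other values where it is counted. Whether Yam1 did so was not tested. The median-of-ratios factor was 1.04 in vehicle 1, with Yam1 at 30133.8 FPKM, and 0.978 in vehicle 2, with Yam1 at 0. In vehicle 3, with Yam1 at 38495.1 FPKM, it was 0.981. Depth is unknown.

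Every file held 25230 lines, and the values of 48 repeated symbols were summed to 25175 symbols. Genes were ranked by mean FPKM, and 1 FPKM was the threshold of expression. Positions and biotypes came from GENCODE M21 on GRCm38 (24172 symbols matched 1 gene, 49 more than 1, 954 none), and upstream windows from RefSeq on GRCm38.p6. Shared sequence was counted as 50-base windows of annotated transcripts found in another gene, on either strand. The members and all 38 lists (599 genes) were chosen with earlier results of these data known. Acta1, Cdt1, Gins2, Rpl13, Hbb-b1 and Tubb3 are not analysed here, a few other genes that the naming rule picks are not reported here, and Adgre1 was matched as Emr1.

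Named were the 5 markers, both members of each of 32 pairs, the 20 highest genes other than predicted, small RNA, mitochondrial and ribosomal protein genes, up to 6 highest and 4 lowest members of each list, up to 5 highest members and all those at 0 of each lineage list, and the 10 most variable genes. No comparison between groups was tested, since 1 group is described. The count of variable genes was tested on simulated data with 4-fold changes only. Alternatives were other thresholds, scalings, pseudocounts, filters and leaving out each library or Yam1. Python 3.11.15, pandas 2.3.3, numpy 2.4.6 and matplotlib 3.10.9 were used.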

Additional observations from a re-analysis of the deposited data

How the results depend on the processing

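No paired analysis was possible because only 1 group, the vehicle libraries, is described. No result changed direction under any alternative run, and of the values that answer a main question 93 stayed within the spread between libraries or 1.5 times the count and 16 did not. Without Yam1 the share of summed FPKM in the 100 highest genes was 26.1% (30.1% with it), that of the metabolism lists 8.24% (7.77%), of the proliferation lists 0.999% (0.943%), of the ribosomal list 7.56% (7.13%) and of the lineage lists 0.439% (0.414%). The number of lineage genes at the threshold, 29 at 1 FPKM, was 12 at 5 FPKM and 46 after each library was rescaled to the common sum that TPM uses. That rescaling raises every value: Myh6 was then at 1696 TPM, Nppa at 415, Actc1 at 1744, Atp2a2 at 1982 and Ldha at 4793. The number of genes that vary more than 2-fold, 36, was 141 after the same rescaling, 303 at a mean of 1 FPKM or more and 2 at a mean of 20 or more. It was 18 without small RNA and mitochondrial tRNA symbols, an alternative chosen after seeing the data. With 1 FPKM added in place of 0.01, 14 of 32 pair ratios moved by more than the spread between libraries, none in sign. Among single genes, pairs and lists 3133 values were unmoved and 707 moved, 633 of them under that same rescaling. Read depth is unknown, so no limit of detection can be set for genes listed at 0, and the receptor genes give only an empirical floor.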
